A study of Mus musculus with 2 samples.

Results

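The microRNA hairpins followed here in the mouse heart are known for immune cells and inflammation, namely Mir142, Mir150, Mir155, Mir223, Mir342, Mir146 and Mir146b. They were chosen by symbol in GENCODE M21 and make up 7 of the 2202 annotated hairpins counted. The tissue was the heart of 2 female B6CASTF1/J mice aged 25 days, with 1 library per animal, and B6CASTF1/J is a first-generation cross of C57BL/6J with CAST/EiJ. Both animals belong to 1 group, for which the labels name no treatment, so the values describe levels in the heart and how far they differed between replicate 2 and replicate 1. The age is that of the age field, and a free-text label gives the number with another unit, months. The labels number the animals separately but give both the same donor identifier, and all SDs rest on reading them as 2 animals.

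A microRNA hairpin is the folded precursor from which short mature microRNAs are cut, and the mature strand pairs with messenger RNAs mainly through its seed, here its bases 2 to 8. Mir142 is made across blood cell lineages, Mir150 in mature lymphocytes, where it restrains the transcription factor Myb, and Mir223 in neutrophils and other myeloid cells. Mir155 is switched on in activated lymphocytes and macrophages, and Mir146 (miR-146a) is induced by NF-kB and restrains the signalling proteins Traf6 and Irak1. Mir342 lies in the gene Evl and is found in lymphoid and myeloid cells. Mir146, Mir155 and Mir342 are also made outside leukocytes, for example in endothelial or stromal cells. In whole tissue, more cells of a type and more of the microRNA per cell cannot be told apart.

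The tables count reads per hairpin and do not separate its arms, so the sequences show what a read at each locus can hold. RefSeq (GRCm38.p6) had a hairpin entry for 6 of the 7 members. The mature strands below are those best known for each hairpin, with the seed in capitals, to show which members share a seed.
miR-155-5p: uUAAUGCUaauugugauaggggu
miR-146a-5p: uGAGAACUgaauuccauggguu
miR-146b-5p: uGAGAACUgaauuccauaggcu
miR-342-3p: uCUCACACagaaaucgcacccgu
miR-142a-3p: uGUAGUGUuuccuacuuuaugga
miR-223-3p: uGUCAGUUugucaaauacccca
Only miR-146a-5p and miR-146b-5p shared a seed among these 6 strands. Over the 1738 mature entries of the RefSeq table, those 2 were also the only ones with that seed, and the seeds of the other 4 strands were each found in no other entry. Mir150 is not among the sequences shown.

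The Mir146 and Mir146b hairpins are printed with their longest shared run in capitals, because reads that fit both loci would count for neither.
Mir146: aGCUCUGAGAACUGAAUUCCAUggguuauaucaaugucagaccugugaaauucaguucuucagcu
Mir146b: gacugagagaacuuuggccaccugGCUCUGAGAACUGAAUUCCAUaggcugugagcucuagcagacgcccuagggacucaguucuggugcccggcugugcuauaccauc
The shared run is 21 nt long. The mature 5p strands are identical at 20 of 22 positions and differ by G18A and U21C, counted from the 5′ end with the miR-146a-5p base first. A read that covers position 18 therefore differs between the loci. The longest runs that Mir142, Mir155, Mir223 and Mir342 shared with a hairpin at another locus were 13, 11, 12 and 12 nt, in either orientation, over the 1004 other hairpins of the RefSeq table.

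The Mir142 locus carries hairpins on both strands, which matters for how its reads were counted. The capitals mark the mature strands.
Mir142: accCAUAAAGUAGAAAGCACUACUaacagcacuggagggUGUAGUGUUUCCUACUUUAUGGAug
Mir142b: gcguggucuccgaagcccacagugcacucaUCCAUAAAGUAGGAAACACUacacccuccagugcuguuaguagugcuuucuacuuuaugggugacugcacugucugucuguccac
All 64 bases of Mir142 (chr11:87756864-87756927, plus strand, mm10) lie inside Mir142b (chr11:87756841-87756955, minus strand), and the 20 bases of miR-142b are the reverse complement of part of miR-142a-3p. On its own strand Mir142 had 765 counts in replicate 2 and 406 in replicate 1, while Mir142b had 0 in both. In the column that ignores strand, both hairpins stood at 0 in both libraries. All values that follow use reads on the hairpin's own strand.

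The 7 loci lie apart from each other, on chromosomes 7, 11, 12, 16, 19 and X of mm10, and Mir142 and Mir146 share chromosome 11 at distant sites. Mir155 lies in an exon of its host transcript Mir155hg on chromosome 16 from 84714140 to 84714204, and Mir142 lies in an intron of the noncoding Mir142hg. Mir342 lies in an intron of the protein-coding gene Evl on chromosome 12 from 108658620 to 108658718, and Mir146b in an intron of Mfsd13a on chromosome 19 from 46342762 to 46342870. Mir223, on chromosome X from 96242817 to 96242926, overlaps an exon of the noncoding F630028O10Rik. Mir150, on chromosome 7 from 45121757 to 45121821, and Mir146, on chromosome 11 from 43374397 to 43374461, overlapped no other annotated gene. Mir146 lies on the minus strand and the other 6 on the plus strand. Apart from Mir142b, the nearest annotated hairpin was Mir5121, 5.1 kb from Mir150, and for the other 5 members it lay 63.1 kb or more away.

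The library of replicate 2 held 2661090 hairpin counts, 41.2% of its reads, and that of replicate 1 held 2050498, 41.0% of its reads. Levels are given as CPM, the usual depth-scaled count, with the hairpin counts of each library as the total and 95% Wilson intervals that cover counting error only. A floor of 3 counts, the most that a count of 0 allows, stands for 1.13 CPM in replicate 2, against 1.46 CPM in replicate 1. Reads matching several places, 41.6% of replicate 2 and 38.5% of replicate 1, entered no hairpin count. Ranks and shares are therefore among the counted reads only. Hairpins copied at several loci can stand too low there, and the members too high beside them.

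With all hairpin counts as the total, the 7 hairpins together held a small and nearly equal share in both hearts. Their sum was 19181 counts in replicate 2, or 0.721% (0.711 to 0.731), and 15252 counts in replicate 1, or 0.744% (0.732 to 0.756). The mean share was 0.732% ± 0.0163 (SD, n = 2). Without the 10 highest hairpins in the total it was 2.34% ± 0.290, a wider spread for its size. The near-equality therefore holds for the full total. A hairpin was called detected if neither library had fewer than 10 counts, which held for 6 of the 7 and for 288 of all 2202 hairpins.

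Mir155 had the highest mean of the group. It reached 1632 CPM (1585 to 1682) in replicate 2 and 2981 CPM (2908 to 3057) in replicate 1, so it was lower in replicate 2, and its mean was 2307 ± 954 CPM (SD, n = 2). By counts it ranked 46th in replicate 2 and 36th in replicate 1 among all hairpins. Mir150, the lymphocyte microRNA, had 2509 CPM (2450 to 2570) in replicate 2 and 1343 CPM (1293 to 1394) in replicate 1, with a mean of 1926 ± 825 CPM. It was the highest member in replicate 2, at rank 38, but only the fourth in replicate 1, at rank 54.

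Mir342 and Mir146 varied less between the hearts. Mir342 had 1473 CPM (1428 to 1520) in replicate 2 and 1419 CPM (1368 to 1471) in replicate 1. Its intervals overlapped and its mean was 1446 ± 38.5 CPM. Mir146, the brake on NF-kB signalling, had 1083 CPM (1044 to 1123) in replicate 2 and 1372 CPM (1323 to 1424) in replicate 1, with a mean of 1227 ± 205 CPM.

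Mir142 and Mir223, microRNAs of blood cells, were lower than these 4 hairpins in both hearts. Mir142 had 287 CPM (268 to 309) in replicate 2 and 198 CPM (180 to 218) in replicate 1, with a mean of 243 ± 63.3 CPM. Mir223, the myeloid microRNA, had 219 CPM (202 to 237) in replicate 2 and 125 CPM (111 to 141.6) in replicate 1, with a mean of 172 ± 66.0 CPM. Both were higher in replicate 2, and their ranges across the animals overlapped each other.

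Mir146b, which shares its seed with Mir146, was close to absent among the counted reads. It had 12 counts in replicate 2, or 4.51 CPM (2.58 to 7.88), and 0 counts in replicate 1, where up to 1.46 CPM would be allowed by the floor. In replicate 2, Mir146 had 240.1 counts for each count of Mir146b.

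**Figure D1:**
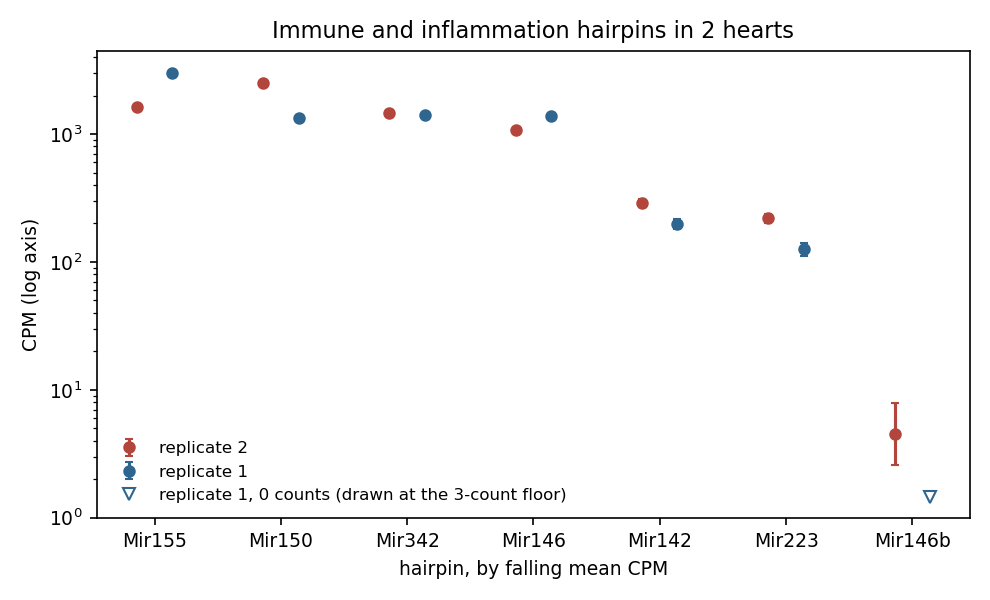
CPM of each hairpin on a log axis in replicate 2 (red, left) and replicate 1 (blue, right), with 95% Wilson intervals that are often smaller than the points. Mir155, Mir150, Mir342 and Mir146 lie between 1083 and 2981 CPM in both hearts, Mir142 and Mir223 between 125 and 287 CPM, and the open triangle marks Mir146b at 0 counts in replicate 1, drawn at the floor of 1.46 CPM.

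Several neighbours in the order of the levels overlapped between the hearts. Ordered by mean, the hairpins ran Mir155, Mir150, Mir342, Mir146, Mir142, Mir223 and Mir146b. The ranges over the 2 animals overlapped between Mir155 and Mir150, between Mir150 and Mir342, and between Mir142 and Mir223. They did not overlap between Mir342 and Mir146, between Mir146 and Mir142, or between Mir223 and Mir146b. Within replicate 1 alone, the intervals of Mir342, Mir146 and Mir150 all overlapped each other. Taken as a ratio of counts there, Mir342 to Mir150 was 1.057 (1.003 to 1.114 by the exact binomial interval), just above 1. The intervals for Mir342 to Mir146 (0.981 to 1.089) and Mir146 to Mir150 (0.970 to 1.078) included 1. With 2 samples an exact two-sided p cannot fall under 0.5, so no test over animals was made.

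Mir150 was the largest part of the group's counts in replicate 2 and Mir155 in replicate 1. Mir150 supplied 34.8% of the counts of the 7 hairpins in replicate 2 (34.1 to 35.5) and 18.1% in replicate 1 (17.4 to 18.7). Mir155 supplied 22.6% in replicate 2 (22.1 to 23.2) and 40.1% in replicate 1 (39.3 to 40.9). Mir342 supplied 20.4% in replicate 2 and 19.1% in replicate 1, while Mir142 supplied 3.99% in replicate 2 and 2.66% in replicate 1.

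**Figure D2:**
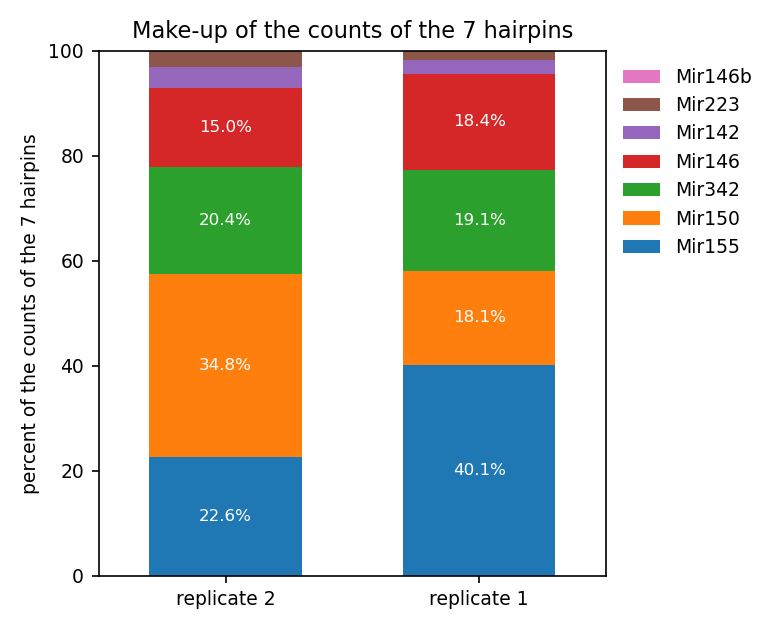
Percent of the summed counts of the 7 hairpins that each supplied in replicate 2 (left bar) and replicate 1 (right bar). The Mir150 part is 34.8% in replicate 2 and 18.1% in replicate 1, the Mir155 part 22.6% in replicate 2 and 40.1% in replicate 1, and Mir146b is too small to see.

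Ratios of counts between members do not depend on how the libraries are scaled. There were 1.54 counts of Mir150 per count of Mir155 in replicate 2 (1.48 to 1.60 by the exact binomial interval) and 0.450 in replicate 1 (0.430 to 0.471), so the order of these 2 hairpins was opposite in the 2 hearts. The ratio of Mir146 to Mir155 was 0.663 in replicate 2 (0.632 to 0.695) and 0.460 in replicate 1 (0.440 to 0.481). In contrast, the ratio of Mir150 to Mir223 was 11.5 in replicate 2 (10.5 to 12.5) and 10.7 in replicate 1 (9.42 to 12.2), and these intervals overlapped. The ratio of Mir142 to Mir223 was 1.31 in replicate 2 (1.18 to 1.47) and 1.58 in replicate 1 (1.35 to 1.85), again with overlap. The ratio of Mir150 to Mir142 was 8.73 in replicate 2 (8.10 to 9.42) and 6.78 in replicate 1 (6.11 to 7.54), without overlap.

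The 2 libraries were then compared hairpin by hairpin, to ask whether the members differed by more than counting error. Each of 326 hairpins that reached 10 counts in either library was tested by the exact binomial test, two-sided, on TMM-scaled library sizes, with Benjamini-Hochberg adjustment over all 326. TMM is a scaling from edgeR that leaves out the hairpins with extreme ratios. The test compares these libraries and not conditions. The 6 members detected in both libraries all passed, against 62.6% of all tested hairpins, and 82.4% of the 188 hairpins that reached 100 counts in either library. At such depth most hairpins differed, so the count says little about these 6. Mir146b entered the test only through its 12 counts in replicate 2, which fixed its direction, so it is left out of the counts of members that follow.

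By direction, 4 of the 6 members were higher and 2 lower in replicate 2, where 36.2% of all tested hairpins were higher and 26.4% lower. The test was rerun on other sets of hairpins, with TMM computed anew on each set. Of the 223 hairpins that reached 50 counts in either library, 74 were higher and 91 lower. Of the 648 that reached 1 count, 86 were higher and 91 lower. The log2 ratio of Mir150 was 0.96 and 1.03 in these reruns, against 1.13 in the main test. The balance of directions in the background thus depended on the set tested, while the 6 members kept their directions. Mir150 was 2.19-fold higher (95% exact interval 2.10 to 2.29, adjusted exact binomial p = 7.28e-286). Mir223 was 2.05-fold higher (1.77 to 2.38, adjusted exact binomial p = 1.64e-22) and Mir142 was 1.70-fold higher (1.51 to 1.93, adjusted exact binomial p = 3.40e-18). Mir342 was 1.22-fold higher (1.16 to 1.28, adjusted exact binomial p = 2.28e-15). Mir155 was lower, with a ratio of replicate 2 over replicate 1 of 0.642 (0.618 to 0.668, adjusted exact binomial p = 4.23e-111). Mir146 was lower with a ratio of 0.925 (0.878 to 0.975, adjusted exact binomial p = 0.00685).

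Counting also a size of at least 1.5-fold, 3 of the 6 members were higher in replicate 2 (Mir150, Mir223 and Mir142) and 1 was lower (Mir155). Among all tested hairpins 19.9% were higher and 19.3% lower by that rule. The median log2 ratio of the 6 members was 0.52, against 0.09 over all tested hairpins. In size, the log2 ratio of Mir150 exceeded that of 81.8% of the 187 other hairpins that reached 100 counts in either library, and that of Mir223 exceeded 77.0%. With TMM computed over all tested hairpins, Mir342 and Mir146 were among the steadier ones. Their log2 ratios exceeded in size those of only 31.0% and 15.0% of the same hairpins. The same share was 66.8% for Mir142 and 61.0% for Mir155.

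**Figure D3:**
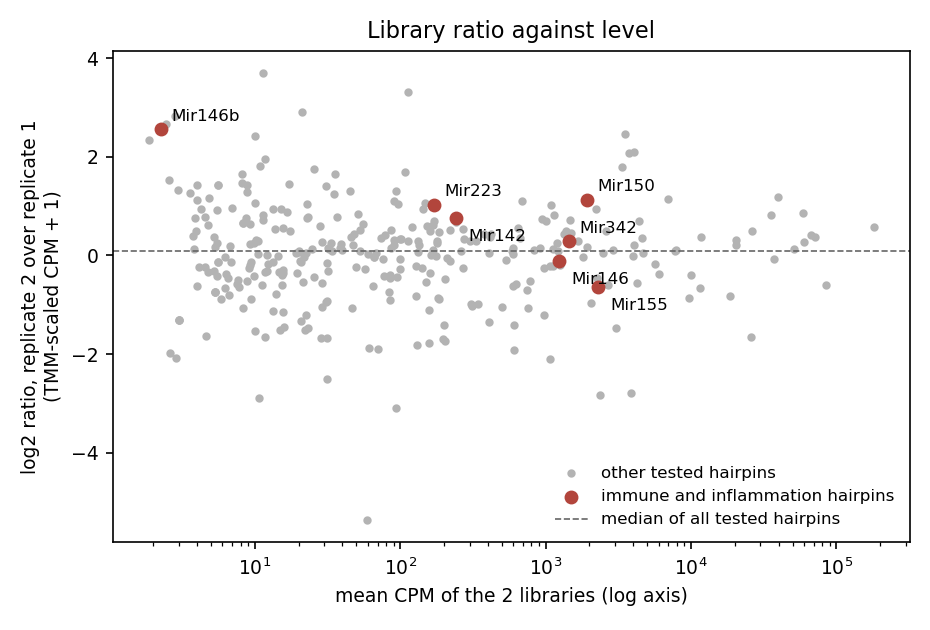
Log2 ratio of replicate 2 over replicate 1, from TMM-scaled CPM with 1 added, against mean CPM on a log axis, for the 326 tested hairpins, with the 7 immune and inflammation hairpins in red and the median of all tested hairpins (0.09) dashed. The 6 members detected in both libraries run from -0.64 for Mir155 to 1.13 for Mir150, and Mir146b stands at 2.56 at the low end of the level axis, where its ratio depends on the added 1 CPM.

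Scaling changed the sizes but not the directions of these ratios. Total hairpin count as the scale moved the median log2 ratio of all tested hairpins to -0.14, and calls were then 76 higher and 117 lower in replicate 2, against 118 higher and 86 lower with TMM. With that scale Mir342 had a log2 ratio of 0.05 and an adjusted exact binomial p of 0.176, so its call was lost. Mir146 then had a log2 ratio of -0.34, against -0.11 with TMM, and Mir142 was 1.45-fold higher, under the 1.5-fold line. The comparison of sizes with other hairpins was made only with TMM over the 326 tested hairpins. The low places of Mir146 and Mir342 hold for that setting. With TMM over hairpins that reached 1 or 50 counts, the log2 ratio of Mir146 was -0.22 and -0.28. That of Mir342 was 0.18 and 0.12, against 0.28 in the main test. Mir150 and Mir223 stayed higher and Mir155 lower under each scaling.

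**Figure D4:**
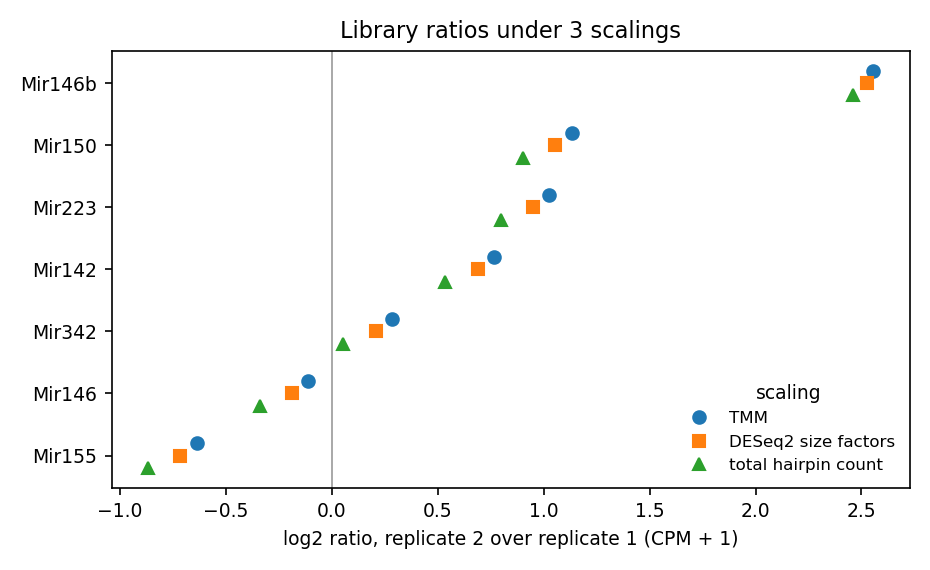
Log2 ratio of replicate 2 over replicate 1 for each hairpin under TMM, DESeq2 size factors and total hairpin count. For each hairpin the points of the 3 scalings lie on the same side of 0, with Mir342 nearest to it at 0.05 under total hairpin count, and the ratio of Mir146b depends on the added 1 CPM.

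Other immune-linked hairpins formed a list of 17. Of them 12 were detected in both libraries and 14 were tested, of which 5 were higher and 4 lower in replicate 2, with a median log2 ratio of 0.08. Over all tested hairpins 36.2% were higher and 26.4% lower, so these counts lie near the background. Mir125a, a microRNA of blood progenitors and many tissues, led the list and reached 6164 CPM in replicate 2, against 13118 CPM in replicate 1. Mir21a, induced in inflammation and fibrosis, had 1903 CPM in replicate 2 and 1974 CPM in replicate 1, while Mir10a had 1166 CPM in replicate 2 and 837 CPM in replicate 1. Mir147, induced by Toll-like receptors in macrophages, had 3 counts in replicate 2 and 10 in replicate 1. Mir511, within the macrophage receptor gene Mrc1, had 35 counts in replicate 2 and 14 in replicate 1. Of the 17, 7 are named by locus number, as copies at several loci are, and their shared reads would be left uncounted.

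Markers of other cell types differed between the libraries as well, and their part in the ratios of the immune hairpins was not tested. The 3 erythroid hairpins, Mir486, Mir451a and Mir144, were all lower in replicate 2 and summed to 869 CPM there and 1783 CPM in replicate 1. Mir155 and Mir146 were also lower in replicate 2, while Mir150, Mir223, Mir142 and Mir342 were higher. Endothelial Mir126a had 60950 CPM in replicate 2 and 108082 CPM in replicate 1. Smooth muscle and pericyte Mir143 and Mir145a summed to 48287 CPM in replicate 2 and 29354 CPM in replicate 1. The heart muscle hairpins Mir208a, Mir208b and Mir499, which mark the labelled tissue, were detected in both libraries and summed to 8291 CPM in replicate 2 and 4440 CPM in replicate 1. The excess came from Mir208a, at 5862 CPM in replicate 2 and 1620 CPM in replicate 1. Mir499 had 2317 CPM in replicate 2 and 2629 CPM in replicate 1, and Mir208b had 112 CPM in replicate 2 and 191 CPM in replicate 1. The 4 fibroblast hairpins summed to 521 CPM in replicate 2 and 4270 CPM in replicate 1, nearly all of it Mir214. Mir199a-1 had 0 counts in both libraries. Of the 4, 2 are named by locus number, Mir199a-1 among them, and their shared reads would be left uncounted. The 0 counts therefore need not mean absence, and the sum may be too low.

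**Figure D5:**
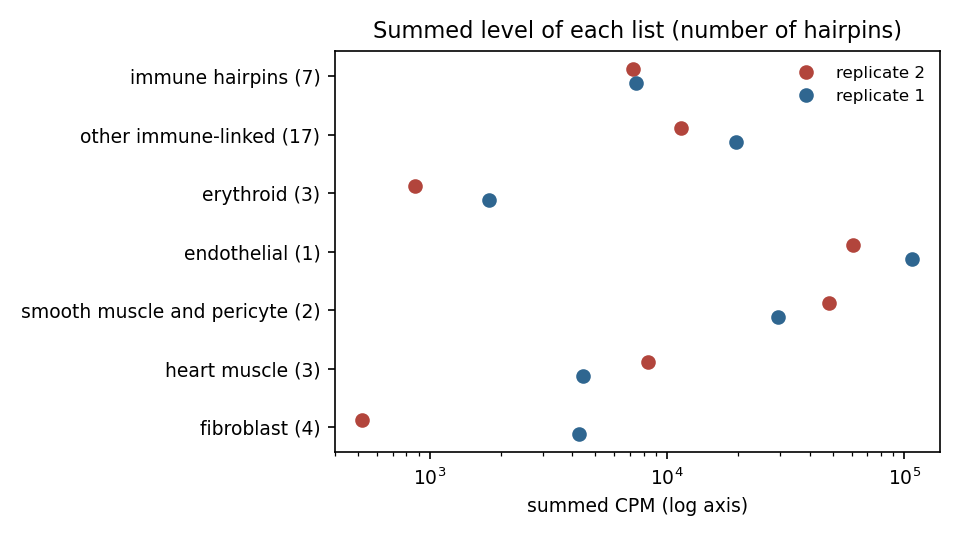
Summed CPM on a log axis of each list in replicate 2 (red) and replicate 1 (blue), with the number of hairpins in brackets. With all hairpin counts as the total, the 7 immune hairpins sum to 7208 CPM in replicate 2 and 7438 CPM in replicate 1. These sums are the closest pair among the lists on that scale, while the fibroblast list differs most.

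In level over both libraries, the hairpin nearest to each detected member, by distance on the log2(CPM + 1) scale, was a microRNA of another group. Mir30b was nearest to Mir142 at a distance of 0.06, since it had 281 CPM in replicate 2 and 205 in replicate 1. Mir27a lay nearest to Mir146 at 0.08, Mir361 to Mir342 at 0.13 and Mir320 to Mir155 at 0.13. Mir431 was nearest to Mir223 at 0.23 and Mir127 to Mir150 at 0.35, so Mir150 had the most distant neighbour. With 2 libraries there are too few points to read a shared pattern from this.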

How the data were processed

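Small RNA libraries from 2 hearts were sequenced, 1 per animal. The deposited tables hold raw read counts per hairpin, placed on mm10 with GENCODE M21 per the file headers of the deposited text notes. Names of the aligner and counter are not given in the sources used here. Per the labels, a multiplexed small RNA protocol was followed. Rows for reads in no single hairpin stayed out of library totals. They were 41.6% (several places), 11.5% (unmapped) and 5.64% (no hairpin) of replicate 2, and 38.5%, 14.1% and 6.48% of replicate 1.

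All 2202 identifiers matched GENCODE M21, and sequences came from RefSeq (GRCm38.p6). Libraries were scaled with TMM from R 4.3.3 and edgeR 4.0.16 (0.923 in replicate 2 and 1.083 in replicate 1). Folds are of TMM-scaled CPM, and log2 ratios add 1 CPM. Differences were called at an adjusted p under 0.05. Intervals are 95% Wilson for shares and exact binomial for ratios, from scipy 1.17.1 and R. PCR copies were not told apart, so intervals, floors and p-values cover counting error only. The libraries differed beyond sampling noise (chi-square per degree of freedom 350) and were not merged.

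Named hairpins were the 7 members, any hairpin on their opposite strand, the nearest hairpin in level of each detected member and up to 3 of the highest detected hairpins per marker list. Mir147, Mir511 and Mir199a-1 were named after their values were seen. Members and lists were chosen with earlier results of these data known. Alternatives were the either-strand column, other totals, count minimums and pseudocounts, DESeq2 1.42.0 size factors, total count scaling and leaving out each replicate.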

Additional observations from a re-analysis of the deposited data

Results flagged for a closer look

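The opposite-strand column, which no comparison above uses, held 765 counts in replicate 2 and 406 counts in replicate 1 at Mir142b. Both values were above the floor of 3 counts. They equal the counts of Mir142 on its own strand, 765 in replicate 2 and 406 in replicate 1, and Mir142 lies inside Mir142b on the other strand. A read on the strand of Mir142 is on the opposite strand of Mir142b, so these counts add nothing to those of Mir142. At the 7 members themselves that column held 0 counts in both libraries.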

How the results depend on the processing

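The share of the 7 hairpins was 0.732% with hairpin counts as the total. It was 1.00% ± 0.0406 (SD, n = 2) in the either-strand column and 0.301% ± 0.00524 of all reads. Without the 10 highest hairpins in the total it was 2.34% ± 0.290, so the hearts were less alike on that total. In the either-strand column Mir142 stood at 0, and the total was smaller, at 1892750 counts in replicate 2 and 1440901 in replicate 1. That column set aside 768383 reads in replicate 2 and 609641 in replicate 1 as ambiguous, against 0 in the own-strand column. With Mir142b on its other strand, the 0 at Mir142 is thus not a measured level. The share ranged from 0.721% to 0.744% with each replicate left out, and the number of members detected from 6 to 7. In the either-strand column 5 members were detected. Of 54 recomputed log2 ratios, all 54 kept their direction (that of Mir146b is fixed by its 0 counts in replicate 1) and 53 their side of the threshold, Mir342 under total count scaling being the exception. Of the 7 members, Mir146b included, 6 to 7 were called under each alternative. With at least 50 counts Mir146b was not tested, and in the either-strand column Mir142 was not tested. Over all hairpins, 177 of 648 (27.3%) were called with no minimum beyond 1 count. No paired analysis was possible because the samples form 1 group. Without either replicate no library comparison is left.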
